A study of Mus musculus with 14 samples.

Results

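In the peak lists of 14 ChIP-seq libraries from mouse kidney, 680 regions away from gene ends carried crotonylation of histone H3 lysine 9 (H3K9cr) nearly everywhere it was measured and acetylation of the same lysine (H3K9ac) nowhere. ChIP-seq pulls down chromatin with an antibody and sequences its DNA, so that a mark stands out as peaks. The regions were chosen by their peaks: all lists were pooled, overlapping peaks on autosomes were merged into 78649 regions, and 48314 of these stayed clear of a 3 kb window on either side of every annotated RefSeq gene end. Of these distal regions, 4459 had an H3K9cr peak in at least 7 of 8 libraries, and 680 of the 4459 (15.3%) had no H3K9ac peak in any of 6 libraries. The presence or absence of a peak in each library is therefore the rule and not a result. The comparison set was the 914 regions (20.5%) chosen by the same H3K9cr rule with H3K9ac in all 6 libraries, called regions with both marks here.

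Kidneys came from WT and ACSS2-/- mice, either controls or after UUO, which makes 4 groups. In ACSS2-/- mice the gene of an acyl-CoA synthetase is deleted in the whole animal. In UUO, or unilateral ureteric obstruction, 1 ureter is tied off and the kidney above it scars, and the study set this against ACSS2 loss to ask what the enzyme does in the fibrotic kidney. Every group had 2 H3K9cr libraries, and the H3K9ac libraries were 2 per UUO group and 1 per control group. The strain given in the methods is C57BL/6 J, and the methods give an age range for purchased mice and a day after surgery for drug studies. The labels tie neither to these libraries. Whole kidney was used, so a region marked in fewer cells and a region marked less in each cell cannot be told apart.

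Histone crotonylation and acetylation are placed on the same lysine from crotonyl-CoA and acetyl-CoA, partly by the same enzymes, and ACSS2 makes such short-chain acyl-CoA in the cytosol and nucleus. Both marks are known from active promoters and enhancers. Many mammalian promoters hold a stretch rich in the dinucleotide CG, where transcription starts and acetylation is usually strong, whereas most enhancers lie far from starts, are poor in CG and are used in a few cell types only.

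The H3K9cr lists held 27530 to 45014 peaks and the H3K9ac lists 15988 to 32760. An absent H3K9ac peak therefore also depends on how many peaks were called, and when every list was reduced to its 15988 longest peaks, 184 regions met the rule. The lists hold positions only, so the height of a peak and the read depth are unknown. The ACSS2-/- control H3K9cr replicate 1 stood apart with the longest list, and 680 of the 680 regions had a peak there. Without it 720 regions met the rule, with 1 missing peak still allowed among the remaining H3K9cr libraries. At Acss2 itself every one of the 14 libraries had 1 to 3 peaks at a gene end, which does not check the deletion. The labels give each of the 4 groups its own antibody catalogue number, rising by 1 from group to group, and whether the antibodies differed was not tested.

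The regions without H3K9ac differed from those with both marks in that they rarely held a transcript start. Although the rule kept all regions away from the outer ends of genes, a gene can have further starts inside it. An annotated RefSeq transcript start lay inside 390 of 881 regions with both marks (44.3%, 95% Clopper-Pearson interval 41.0 to 47.6%), but inside 4 of 657 regions without H3K9ac (0.609%, 0.166 to 1.55%). The intervals cover counting error only, and the table of starts used here covered 657 of the 680 regions. These 4 regions held starts of Sema4d, Mef2c, Gm36129 and A530001N23Rik.

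The DNA before 2 of these starts is shown beside that of 2 typical starts in regions with both marks, since it shows how they differ in CG content. The typical starts were picked for having the median CG count of their class, in the longest regions that hold such a start. Each line gives the 250 bases before the start, 5′ to 3′ on the strand of the gene, from RefSeq on GRCm38.p6, with CG in capitals. Sema4d, which encodes a semaphorin, is read at chr13:51739447-51739696 on the minus strand, and Mef2c, a transcription factor gene, at chr13:83573357-83573606 on the plus strand. Slc12a7, a potassium chloride cotransporter gene, is read at chr13:73763410-73763659 on the plus strand and Sash1, a signalling scaffold gene, at chr10:8886071-8886320 on the minus strand.
Sema4d: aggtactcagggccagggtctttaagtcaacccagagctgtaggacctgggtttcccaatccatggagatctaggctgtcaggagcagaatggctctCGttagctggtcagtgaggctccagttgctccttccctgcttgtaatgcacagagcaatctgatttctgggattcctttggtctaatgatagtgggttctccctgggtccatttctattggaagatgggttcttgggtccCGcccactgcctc
Mef2c: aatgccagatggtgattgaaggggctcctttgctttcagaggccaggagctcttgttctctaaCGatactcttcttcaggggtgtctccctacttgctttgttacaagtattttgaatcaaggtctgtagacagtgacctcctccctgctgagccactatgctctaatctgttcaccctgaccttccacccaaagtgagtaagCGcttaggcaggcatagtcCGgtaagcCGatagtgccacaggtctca
Slc12a7: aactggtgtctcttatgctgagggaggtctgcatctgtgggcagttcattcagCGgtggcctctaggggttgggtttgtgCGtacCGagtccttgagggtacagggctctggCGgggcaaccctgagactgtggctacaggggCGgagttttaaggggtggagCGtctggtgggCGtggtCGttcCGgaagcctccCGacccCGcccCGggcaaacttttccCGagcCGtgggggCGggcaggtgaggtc
Sash1: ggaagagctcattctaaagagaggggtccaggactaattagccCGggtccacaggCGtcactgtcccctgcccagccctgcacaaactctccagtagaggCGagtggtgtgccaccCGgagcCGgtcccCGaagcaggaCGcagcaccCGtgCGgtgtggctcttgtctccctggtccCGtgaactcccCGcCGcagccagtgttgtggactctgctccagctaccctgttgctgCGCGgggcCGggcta

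The Sema4d window held 2 CG and the Mef2c window 4, whereas the Slc12a7 and Sash1 windows held the class median of 15 each. Over all 5 starts in the 4 regions without H3K9ac the median was 2 CG (range 2 to 4) and 0 of the 5 had 10 or more, where the 2 starts of A530001N23Rik are neighbouring bases and share nearly all of their window. The 468 starts in regions with both marks had this median of 15 CG, and 334 of them (71.4%) had 10 or more. Among all 32851 annotated starts the median was 6 and 37.8% had 10 or more. No genome sequence was used here, so the base composition of the other regions was not analysed here.

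**Figure D1:**
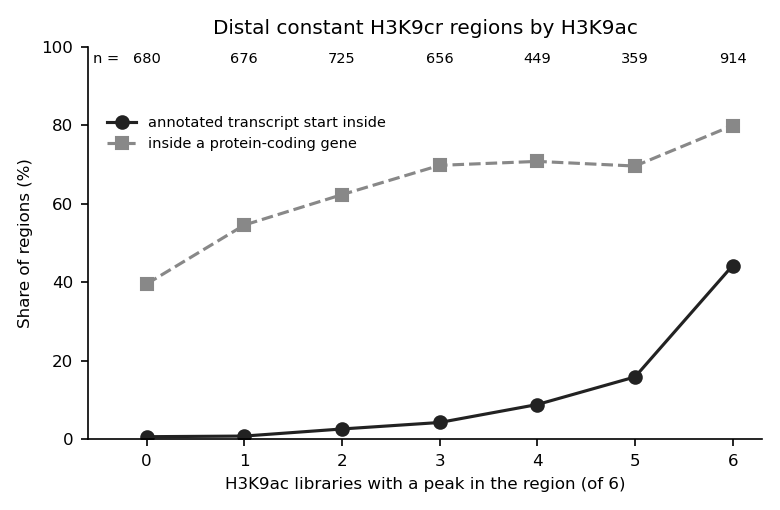
Share of distal regions with H3K9cr in at least 7 of 8 libraries that hold an annotated transcript start (circles) or lie inside a protein-coding gene (squares), in percent, against the number of H3K9ac libraries with a peak in the region. The numbers along the top are regions per class. The share with a start rises from 0.609% without H3K9ac to 44.3% with H3K9ac in all 6 libraries.

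The share of regions holding a start rose step by step with the number of H3K9ac libraries, from 0.609% with 0 through 0.769%, 2.58%, 4.23%, 8.82% and 15.9% to 44.3% with all 6. The regions without H3K9ac were shorter, and the shares were therefore also compared within classes of the length covered by H3K9cr peaks. When the 4459 regions were divided into 5 classes of equal number by the median covered length, the regions without H3K9ac held a start in 2 of 222, 2 of 185, 0 of 133, 0 of 78 and 0 of 39 cases from the shortest class to the longest. In the same classes 33.3% to 50.5% of the regions with both marks held one. The difference was thus present in every class of covered length. The length of the whole merged region, in which a start was counted, was not held fixed.

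Regions without H3K9ac lay inside a protein-coding gene in 269 of 680 cases (39.6%, 95% interval 35.9 to 43.3%), against 731 of 914 regions with both marks (80.0%, 77.2 to 82.5%). Whether a region inside a gene was exonic or intronic was not analysed here. Without the regions that held a start, the shares were 256 of 653 (39.2%) and 317 of 491 (64.6%), so the difference was smaller but still present. Where the strand of the host gene was known, the centre of the region lay in the first 25% of the gene in 50, in the next 25% in 64, in the next in 63 and in the last in 33 of 210 cases. The numbers in the same order were 572, 784, 604 and 312 of 2272 for all distal constant regions. They were 169, 217, 153 and 61 of 600 for both marks. The first 25% thus held 23.8% of the members, 25.2% of all and 28.2% of those with both marks. The distance to the nearest gene end had a median of 14685.5 bp, against 10078.5 bp for both marks, and exceeded 50 kb in 85 regions (12.5%) against 75 (8.21%). Among the distal constant regions the share without H3K9ac was 12.6% at 3 to 5 kb from a gene end and 24.2% beyond 100 kb. By chromosome it was highest on chromosome 3 (55 of 210, 26.2%) and chromosome 13 (53 of 224, 23.7%) and lowest on chromosome 15 (17 of 203, 8.37%).

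The regions without H3K9ac were modest in size. Merged regions had a median length of 2172 bp (range 612 to 7969 bp), and those with both marks 2919.5 bp. The covered length, meaning the bases of a region under the peaks of 1 library, had a median of 1031.5 bp, taken over the libraries with a peak and then over regions, against 1804.25 bp. The members near the limits of the rule show what it cuts. Regions with H3K9cr in 8 of 8 libraries (296 of the 680) had a median of 1132.5 bp and those with 7 of 8 (384) had 942 bp, while 594 regions just outside, with H3K9cr in 6 and no H3K9ac, had 804.75 bp. Another 676 just outside had enough H3K9cr and H3K9ac in 1 library, with 1108 bp. A single base lay under the peaks of at least 7 H3K9cr libraries in 505 of the 680 regions (74.3%), against 907 of 914 with both marks. In the other regions without H3K9ac fewer libraries shared a base, with 3 as the lowest number. The nearest H3K9ac peak of any library was a median of 11552.5 bp away. It was within 10 kb of 317 regions (46.6%) and within 1 kb of 40.

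The 384 regions with 7 of 8 lacked a peak more often in UUO than in control libraries. This counts peaks that the rule itself used. The same count was not made for the other distal regions with 7 of 8, so it cannot be called a trait of the members. The missing peak belonged to a UUO library in 273 and to a control library in 111. By library, 107 were missing in WT UUO replicate 2 and 105 in ACSS2-/- UUO replicate 2, which had the 2 shortest H3K9cr lists (30406 and 27530 peaks). Numbers for the others lay between 0 and 41. By genotype, 203 were missing in WT and 181 in ACSS2-/- libraries.

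Regions were ranked by their median covered length over the H3K9cr libraries, not by the length of the merged region. The longest without H3K9ac by this measure was chr3:21983116-21989212. It lay 18769 bp from the lncRNA gene Gm31813 and 87040 bp from Tbl1xr1, which encodes a corepressor subunit. It was covered over 5642, 4609, 6025 and 5606 bp in the control libraries and 5316, 2991, 4069 and 2332 bp in the UUO libraries, in the order WT replicates 1 and 2 and ACSS2-/- replicates 1 and 2, which is kept below. The groups overlapped, and 2332 bp of it lay under peaks of all 8 libraries. Next came chr7:84355205-84362913 inside Arnt2, a bHLH-PAS transcription factor gene, with a median of 3772.5 bp. It was followed by chr6:91530019-91537277, 7398 bp from the splicing factor gene Lsm3, with 3690.5 bp. The other 7 of the 10 longest had medians of 3218.5 to 3571.5 bp and lay at Ccdc34, Gm19202, Ptprg, Rhobtb1, Aadat, Tmem33 and again Lsm3. Of these, chr10:69261480-69266842 inside Rhobtb1 showed the sharpest contrast. Its covered length was 3503, 3601, 4522 and 3403 bp in control kidneys and 551, 0, 465 and 347 bp in UUO kidneys. As it had no peak in WT UUO replicate 2, it was not in the main test below. In a fit that included regions with 7 of 8 libraries and dropped the library without a peak, the difference in UUO was -2.62 on the log2 scale (adjusted p = 0.00815 by limma).

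The members were spread over many genes. They lay in 236 protein-coding genes, of which 205 held 1, 26 held 2 and 5 held 3, namely Rhobtb1, Slc14a2, Elovl6, Frmd4b and Nedd9. Slc14a2 encodes the urea transporters of the inner medulla, and Nedd9 an adaptor of focal adhesions. Among neighbours on the same chromosome, 31 of 661 pairs were less than 10 kb apart. The closest pair lay 259 bp apart in Frmd4b (chr6:97428379-97430734 and chr6:97430994-97432618). The next 4 pairs were 306 to 800 bp apart, on chromosomes 17, 13, 4 and 10, the last of them in Rhobtb1.

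Few members, and few distal constant regions of any kind, lay at the kidney genes on 9 lists. The lists held cell type markers, nephron transcription factors and fatty acid oxidation genes. Of 680 regions, 6 (0.882%) lay inside or nearest to 1 of the 172 genes, against 15 of 914 with both marks (1.64%) and 52 of 4459 distal constant regions (1.17%). They were 2 at Tfcp2l1, a transcription factor gene of the collecting duct, and 1 each at Slc4a4 (the sodium bicarbonate cotransporter of the proximal tubule), Spp1 (osteopontin, made by injured tubules), Synpo (synaptopodin of podocytes) and Acot12 (an acyl-CoA thioesterase). The lists for distal nephron, leukocyte, endothelial and stromal cells held 0 members, beside 0.112%, 0.0224%, 0.112% and 0.0449% of all distal constant regions. A count of 0 among the 680 allows a share of up to 0.441%, which is above each of these. On the lists with 0 members, so few distal regions lie at the genes that a count of 0 cannot tell the members from the other regions. The lists that held members were described without a test.

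To ask how UUO and ACSS2 loss moved these regions, log2 covered length was compared across the 8 H3K9cr libraries by limma over the 3083 distal regions with a peak in every one of them, after centring each library on its median. The rule used the presence of peaks, not their length in one group against another, and 296 of the 680 regions could be tested. In UUO against control 457 of the 3083 regions were called at an adjusted p under 0.05 (14.8%), 203 longer in UUO (6.58%) and 254 shorter (8.24%). Of the 296 members, 54 were called (18.2%), 19 longer (6.42%) and 35 shorter (11.8%). The share of longer members was thus near the background, and that of shorter members was above it. Of 892 regions with both marks, 53 were longer and 19 shorter. Both sets were chosen by H3K9ac peaks in UUO as well as control libraries. What this choice adds to their difference in UUO was not tested. The median log2 difference was -0.083 for the members, 0.24 for both marks and 0.073 for all 3083.

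The split between longer and shorter depends on the centring. Without centring the median of all 3083 differences was -0.34, and 6 members were called longer (2.03%) and 53 shorter (17.9%), beside 1.39% and 17.7% of all regions. On that scale the members' shares were near the background in both directions. The count also rests on single libraries. It was 13 without ACSS2-/- control replicate 1, 14 without ACSS2-/- control replicate 2, 28 and 30 without WT control replicates 2 and 1, and 29 without WT UUO replicate 2. The calls over all 3083 regions fell with it, to 94, 94, 201, 180 and 191 in the same order. When regions with 7 of 8 libraries were included, 98 of 680 members were called (14.4%), beside 597 of 4459 regions (13.4%), which is near the background. That fit dropped the library without a peak, which among the added members was a UUO library in 273 and a control library in 111. When regions at gene ends were tested too, 49 of 296 members were called (16.6%), 10 longer and 39 shorter (13.2%). Of all 14664 regions in that fit 1192 were called (8.13%), 406 longer and 786 shorter (5.36%). That background includes regions at gene ends and is not the distal one used above. Being called favours a like sign in both genotypes and groups that do not overlap, so both are given as a description. Among the called members, 33 of the 35 shorter and 19 of the 19 longer had the same sign of the centred difference in both genotypes. Of all called regions, 249 of 254 shorter and 202 of 203 longer ones did. The centred lengths of control and UUO libraries did not overlap in 30 and 17 of the called members, against 205 and 171 of all called regions.

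**Figure D2:**
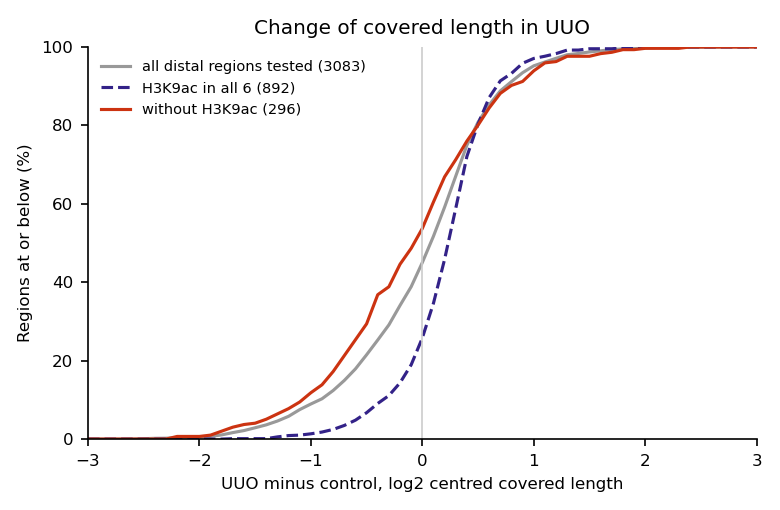
Cumulative share of regions (percent) against the difference in log2 centred covered length, UUO minus control, for all distal regions tested (grey), those with H3K9ac in all 6 libraries (dashed) and those without H3K9ac (red). At a difference of 0 the red curve is at 53.7%, the grey at 45.0% and the dashed at 25.8%.

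Of the shortened regions, the smallest p belonged to chr1:118697578-118701021, 12409 bp beyond the 3′ end of Tfcp2l1. Its covered length was 3078, 1820, 3047 and 2604 bp in the control libraries and 413, 313, 456 and 417 bp in the UUO libraries. The lowest control library was far above the highest UUO library. The difference was -2.29 ± 0.23 (log2, SE, adjusted p = 0.00525 by limma). In UUO the small peaks sat at different places within the region, and at most 6 libraries shared a base. The other member at this gene, chr1:118660707-118663693 inside Tfcp2l1, went from 2949, 1151, 2380 and 2457 bp to 915, 1239, 1016 and 742 bp. WT control replicate 2 lay below WT UUO replicate 2, and the region was not called (-0.72 ± 0.34, adjusted p = 0.181 by limma).

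**Figure D3:**
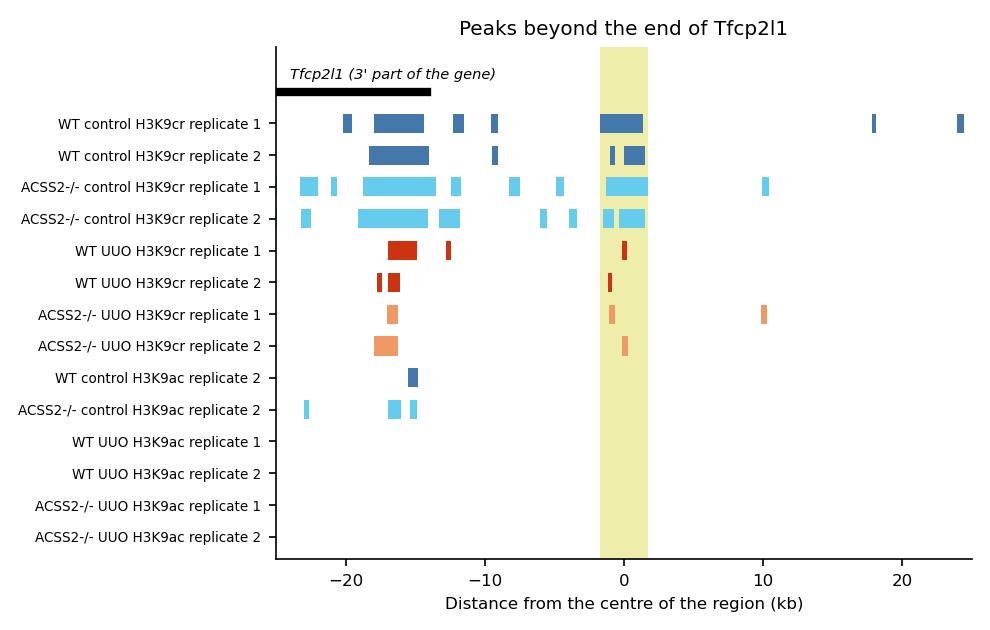
Peaks of the 14 libraries around the region beyond the end of Tfcp2l1, drawn as bars against the distance from the centre of the region in kb. The yellow band is the region and the black bar the 3′ part of the gene. Control H3K9cr peaks cover most of the band, UUO H3K9cr libraries have 1 short peak each in it, and no H3K9ac library has a peak in it.

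A further 4 shortened regions were named by their p. The region chr1:62825820-62828711 lay 7127 bp from Nrp2, a co-receptor for semaphorins and VEGF. Its covered length was 1808, 2067, 2720 and 1721 bp in control and 518, 409, 542 and 342 bp in UUO kidneys (-1.79 ± 0.20, adjusted p = 0.00615 by limma). The region chr3:129580942-129584222 lay inside Elovl6, which encodes a fatty acid elongase, and went from 2326, 2413, 2843 and 2939 bp to 518, 582, 731 and 630 bp (-1.69 ± 0.20, adjusted p = 0.00615 by limma). Control and UUO libraries were fully apart in both. The other 2 members in Elovl6 were not called. At chr3:129553668-129555426 the values were 520, 494, 1411 and 1091 bp in control and 903, 888, 1104 and 819 bp in UUO kidneys (0.63 ± 0.18, adjusted p = 0.0544 by limma). The remaining one, chr3:129550869-129552721, lacked a peak in 1 library. In the fit that included regions with 7 of 8 libraries it differed by -0.88 (adjusted p = 0.324 by limma).

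The region chr2:118178408-118183983 inside Fsip1, named for the fibrous sheath of sperm, went from 3665, 2992, 4501 and 3813 bp to 1227, 502, 863 and 468 bp (-1.98 ± 0.27, adjusted p = 0.00769 by limma). The last, chr5:53760175-53762580, lay 46962 bp from Tbc1d19 and went from 2316, 1755, 2368 and 2279 bp to 751, 430, 331 and 477 bp (-1.77 ± 0.26, adjusted p = 0.00915 by limma). Among the 10 longest members by median covered length, 2 were called. The region chr8:60490059-60495988, 9854 bp from Aadat, an aminotransferase gene of lysine and tryptophan breakdown, went from 4402, 4567, 5463 and 4816 bp to 2118, 495, 1256 and 859 bp (-1.80 ± 0.35, adjusted p = 0.0192 by limma). The region chr6:91587931-91592637 near Lsm3 differed by -0.75 ± 0.21 (adjusted p = 0.0492 by limma).

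Of the lengthened regions, chr5:31583269-31588313 had the smallest p. It lay 8629 bp from the lncRNA gene Gm38424 and 21513 bp from Slc4a1ap, the gene of kanadaptin. Its covered length was 365, 358, 651 and 1206 bp in control and 4127, 2195, 1288 and 1903 bp in UUO kidneys (2.35 ± 0.32, adjusted p = 0.00769 by limma). The groups did not overlap, but ACSS2-/- control replicate 2 came close to the lowest UUO library. The region chr11:21033463-21035215 lay 56067 bp from Peli1, an E3 ubiquitin ligase gene of Toll-like and IL-1 receptor signalling. It went from 550, 568, 898 and 580 bp to 1630, 1389, 1137 and 699 bp (1.28 ± 0.20, adjusted p = 0.0105 by limma), and ACSS2-/- UUO replicate 2 lay below ACSS2-/- control replicate 1.

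Inside Ninj2, which encodes the adhesion protein ninjurin 2, chr6:120158232-120159921 went from 760, 388, 385 and 488 bp to 1018, 1331, 1602 and 1145 bp (1.79 ± 0.30, adjusted p = 0.0120 by limma). Inside Uroc1, the urocanase gene of histidine breakdown, chr6:90357607-90361303 went from 728, 735, 1690 and 901 bp to 2893, 2530, 2278 and 1030 bp (1.51 ± 0.26, adjusted p = 0.0121 by limma). The fifth, chr5:52587606-52589829, lay 21299 bp from Lgi2 and went from 652, 664, 817 and 607 bp to 2224, 1038, 975 and 976 bp (1.25 ± 0.23, adjusted p = 0.0148 by limma). The values at Ninj2 and Lgi2 did not overlap between control and UUO, and those at Uroc1 did.

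Of the 6 members at listed kidney genes, 2 were called, the one beyond Tfcp2l1 and the one inside Synpo. The Synpo region, chr18:60649937-60652405, was covered over 757, 331, 961 and 717 bp in control and 2193, 1212, 2160 and 1131 bp in UUO kidneys, without overlap (1.72 ± 0.32, adjusted p = 0.0159 by limma). An H3K9ac peak lay 487 bp from it. The Spp1 region, chr5:104416309-104420852, had 3050, 1022, 3237 and 1582 bp in control and 2977, 2806, 2669 and 2042 bp in UUO kidneys and was not called (0.79 ± 0.37, adjusted p = 0.180 by limma). The Slc4a4 region, chr5:89275694-89279493 (0.60 ± 0.40, adjusted p = 0.324 by limma), and the Acot12 region, chr13:91760511-91763758 (-0.83 ± 0.37, adjusted p = 0.165 by limma), were not called either. The Sema4d region whose start is printed above, chr13:51739155-51740837, was called longer, from 348, 317, 1169 and 475 bp to 1401, 697, 881 and 791 bp (1.28 ± 0.29, adjusted p = 0.0271 by limma).

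**Figure D4:**
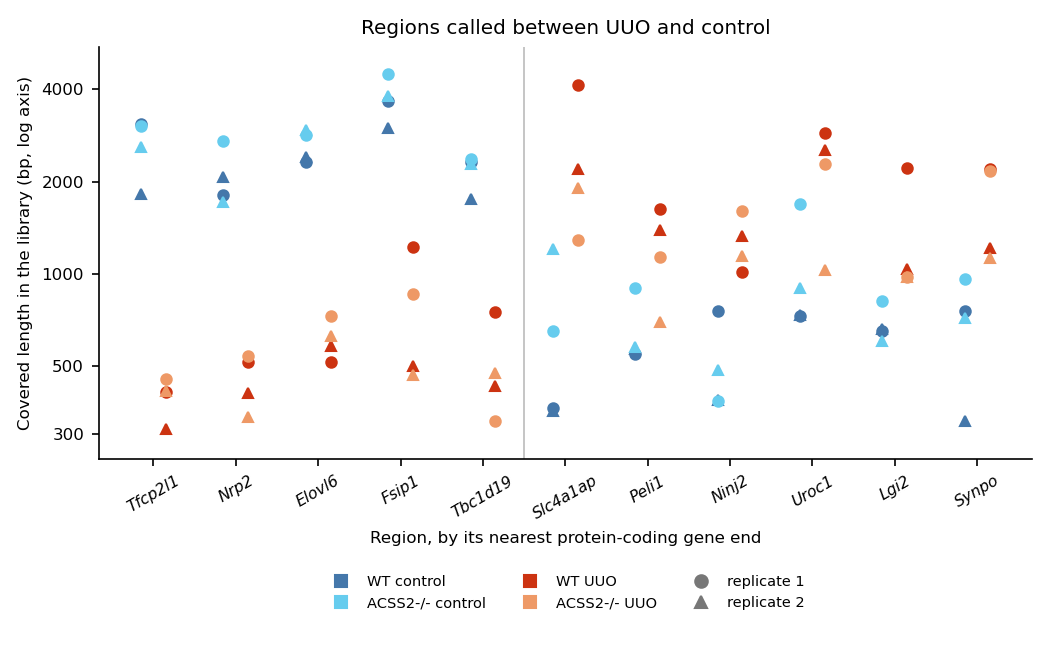
Covered length in bp (log axis) of the 10 regions named by their p and of the Synpo region, each labelled by its nearest protein-coding gene end, in the 8 H3K9cr libraries. Colours are the groups and symbols the replicates. In the 5 regions left of the line all UUO libraries lie below all control libraries, and in the 6 right of it the groups overlap only at Peli1 and Uroc1.

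ACSS2 loss moved no member past the threshold. In ACSS2-/- against WT, limma called 0 of 3083 regions (0%), with 239 at an unadjusted p under 0.05, of which 32 were members. The smallest adjusted p was 0.382. The test of whether the change in UUO differed between genotypes also called 0 of 3083 (0%), with 262 at an unadjusted p under 0.05, of which 29 were members, and a smallest adjusted p of 0.284. With 2 libraries in a group, these counts do not show that the genotypes are alike.

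A last comparison asked whether the members as a set changed more than the regions with both marks. The reference is not independent of UUO. It was chosen for an H3K9ac peak in every library, 2 per UUO group and 1 per control group, and the members for none. Whether this choice shaped the difference below was not tested. For each library the median log2 covered length of the 296 members was set against that of the 892 regions with both marks and H3K9cr in all 8 libraries. The members were shorter in every library, as their smaller size implies. The log2 ratio was -0.52, -0.63, -0.33 and -0.69 in the control libraries and -0.71, -0.86, -0.80 and -0.96 in the UUO libraries. All UUO libraries lay below all control libraries. The means were -0.83 ± 0.11 in UUO and -0.54 ± 0.16 in control kidneys (SD, n = 4), a difference of -0.30 (p = 0.0286 by the exact two-sided permutation test, the smallest that 4 against 4 allows, and 0.0571 after adjustment over 2 comparisons). Within WT the difference was -0.21 and within ACSS2-/- it was -0.38, with 2 libraries on each side, where the exact p cannot go below 0.333. Against all distal regions with H3K9ac in at least 1 library the difference was -0.092 (p = 0.200 by the exact permutation test). Against the 904 such regions whose mean covered length lay between the quartiles of the members, a reference chosen after seeing the data, it was -0.21 (p = 0.0286 by the exact permutation test). The numbers of peaks also differed, with 27530 to 36734 in UUO and 32945 to 45014 in control H3K9cr libraries. Their part in the difference was not tested beyond the lists of equal number, which gave -0.45. Those lists kept the longest peaks, and the value rests on other sets, 77 members and 495 regions with both marks. For ACSS2-/- against WT the difference was -0.016, with means of -0.70 ± 0.27 and -0.68 ± 0.15 (SD, n = 4, p = 0.943 by the exact permutation test).

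**Figure D5:**
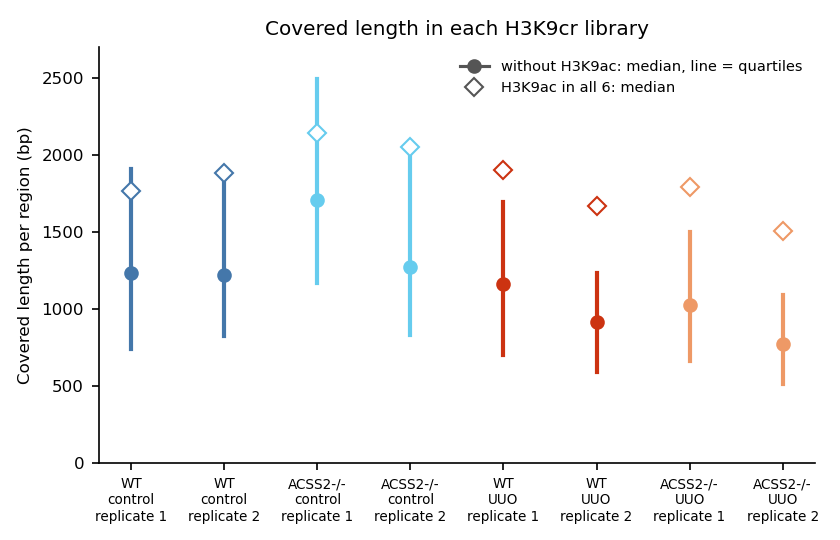
Covered length per region in bp for each H3K9cr library. Circles are medians of the 296 regions without H3K9ac, lines their quartiles, and diamonds the medians of the 892 regions with both marks. The circles lie between 1220.5 and 1707 bp in control and between 773 and 1163.5 bp in UUO libraries, always below the diamonds.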

How the data were processed

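H3K9cr and H3K9ac ChIP-seq of mouse kidney was analysed from 14 peak lists, 1 per library. According to the methods and the submitters' processing notes, the authors trimmed and filtered the reads, mapped them to mm10 with Bowtie2, dropped organelle, low-MAPQ and duplicate alignments, and used MACS2 to call peaks in each library and ChIPseeker to annotate them. The deposited values used are peak starts and ends in bp; the 2 further columns are constant, so neither signal nor score was available and depth is unknown. The number of peaks limits the precision. In 4 lists the peak names carry another replicate number than the label, and the labels were followed.

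Peaks were merged on autosomes with a minimum overlap of 1 bp. Gene ends (49943 genes) and 32851 transcript starts came from RefSeq on GRCm38.p6; starts on chromosome 18 were not used here. The regions and gene lists were chosen with earlier results of these data known. Log2 covered length was fitted with limma 3.58.1 in R 4.3.3, over 4 group means with the Benjamini-Hochberg adjustment over all 3083 regions. Library medians were compared by exact two-sided permutation with SciPy 1.17.1 (Python 3.11.15, numpy 2.4.6, pandas 2.3.3, matplotlib 3.10.9). The code was tested on simulated data. The titles number the libraries of a group, and whether each number is a separate animal is not stated there, so p-values measure only the spread between libraries, which may be technical.

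Regions named were the 10 longest by median covered length and up to 5 per direction with the smallest p in a contrast with calls. Those at listed genes, those in the genes holding most of them and the 5 closest pairs were named too. The regions with a start inside were named because there were only 4. The planned base composition and motifs at region midpoints were replaced by those of the start windows, where the matches to 7 motifs in only 5 windows are not reported here. Alternatives were other windows and peak rules, equal list lengths, other centring, the replicate block, other references and leaving out each library; alternatives added after seeing the data were a reference of the members' length, regions with 7 of 8, a shared base in 7 libraries, and the shares under each rule.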

Additional observations from a re-analysis of the deposited data

Results flagged for a closer look

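The gene ends that the rule leaves out held a smaller set of the same kind. Of 12630 autosomal regions within 3 kb of a gene end with H3K9cr in at least 7 of 8 libraries, 241 (1.91%) had no H3K9ac peak in any library, and 9682 (76.7%) had one in all 6. The 241 are data outside the comparisons above and exceed the 3 counts taken as the floor. The longest of them by median covered length was chr19:9974149-9980263 at Fth1, the gene of the ferritin heavy chain, with 3656 bp. No test was made on them.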

How the results depend on the processing

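The number of regions was 436 with 10 kb around gene ends, 296 with H3K9cr in 8 of 8 and 1274 in at least 6 of 8 libraries, 1356 with H3K9ac in at most 1 library and 184 with lists of equal length. Leaving out 1 library, with 1 missing H3K9cr peak still allowed, gave 691 to 1120, the highest without ACSS2-/- control H3K9ac replicate 2. The share with a start was 0% with equal lists (0 of 179, which allows up to 1.68%), and the share in protein-coding genes was 46.1%, 33.1% and 47.1% with 10 kb, 8 of 8 and at most 1 H3K9ac library. Members called in UUO were 98 of 680 (14.4%, all regions 13.4%) when regions with 7 of 8 were included, and 13 to 50 of 296 (all regions 94 to 431 of 3083) when 1 library was left out. The relative covered length in UUO was -0.092 with all H3K9ac regions as reference and -0.35 to -0.22 without 1 library, where 4 against 3 cannot go below 0.0571. The causes of these changes were not tested. For ACSS2-/- against WT it turned to 0.039 with means, 0.076 with equal lists and 0.047 with 7 of 8 included, and ran from -0.14 to 0.073 without 1 library.

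The groups share replicate numbers. Differences between H3K9cr replicates 1 and 2 correlated between groups at -0.061 to 0.108 across regions. That gives no sign of a pairing by number between groups but cannot exclude one. A pairing of H3K9cr with H3K9ac libraries was not tested. With the replicate block limma called 56 members in UUO (18.9%, 22 longer and 34 shorter), beside 419 of 3083 regions (13.6%), and 0 for genotype and for the difference between genotypes, and the relative covered length was -0.30 (p = 0.0556, the smallest that the exact permutation test with the block allows) and -0.016 for genotype. Of the 10 named regions, 7 were called under all 13 alternatives. The region at Ninj2 was not called without ACSS2-/- control replicate 1, the one at Uroc1 without centring or without ACSS2-/- control replicate 2, and the one at Lgi2 in those 3 cases.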

Other observations

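On chromosome X, 2 of 60 distal regions with H3K9cr in at least 7 of 8 libraries had no H3K9ac peak (3.33%), under the floor of 3 counts.

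A further 2 members called in UUO against control are given here, chosen after their values were seen. The region chr8:77131614-77134654 inside Nr3c2, the mineralocorticoid receptor gene, was covered over 1573, 1948, 2505 and 2087 bp in control and 758, 592, 972 and 766 bp in UUO kidneys (-0.98 ± 0.17, adjusted p = 0.0139 by limma). The region chr3:14955953-14959908, 11292 bp from the end of A930001A20Rik, went from 2618, 1842, 3940 and 2752 bp to 484, 351, 590 and 1062 bp (-1.82 ± 0.29, adjusted p = 0.0112 by limma). Control and UUO libraries did not overlap in either.

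On the centred scale, only 2 of the 35 shortened members had opposite signs in the 2 genotypes. The lengths in bp given here are not centred. In bp the first region was shorter in UUO in both genotypes. The second was shorter in WT, and in ACSS2-/- kidneys its control and UUO values overlapped. The region chr3:133721505-133725551, 176368 bp from Tet2, a gene of DNA demethylation, had 2105 and 3027 bp in WT control, 590 and 578 bp in WT UUO, 2487 and 2590 bp in ACSS2-/- control and 2222 and 2177 bp in ACSS2-/- UUO kidneys. The region chr11:70472298-70476648, 6093 bp from Zmynd15, went from 2712 and 3426 bp to 948 and 684 bp in WT and from 2850 and 3584 bp to 2989 and 1770 bp in ACSS2-/- kidneys. The difference between the genotypes was 2.39 ± 0.41 and 1.93 ± 0.43 (log2, SE), and neither passed the adjustment over all regions (adjusted p = 0.284 and 0.349 by limma).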
